A study of Arabidopsis thaliana with 4 samples.

Results

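Sulfur assimilation and its starvation response were followed through 10 genes chosen by locus, out of 33557 genes in each deposited table: the reductase genes APR1, APR2 and APR3, the sulfate transporter genes SULTR1;1, SULTR1;2 and SULTR2;1, and the starvation response genes SDI1, SDI2, LSU1 and LSU2. All 10 were present and tested in both tables. RNA came from whole Arabidopsis thaliana seedlings of hdp3-2 and asil1-2 (2 libraries per mutant), and the authors set each mutant against Col-0, the wild type. The mutants are named for HDP3, a transposase of Harbinger origin that the plant has taken over, and ASIL1, a trihelix DNA-binding factor. The nature of the alleles is not in the labels, and the series asks whether both proteins act on overlapping transcripts. Per the labels, the mutants were 14 days old and had been chilled in the dark for 3 days at 4 °C, then kept at 22 °C in long days (light for 16 h, dark for 8 h) on Murashige and Skoog agar with 2% sucrose. The design text gives the same age for Col-0, whose libraries belong to another deposit. How many Col-0 libraries there were, and when they were harvested, is not stated in the text at hand, so the genotype and the deposit cannot be told apart.

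Plants take up sulfate through SULTR transporters, activate it with ATP sulfurylase to adenosine phosphosulfate (APS), and reduce it through APS reductase (APR) and sulfite reductase to sulfide, which is built into cysteine. A side branch phosphorylates APS and supplies the sulfate groups of glucosinolates, the sulfur-rich defence compounds of the cabbage family. When sulfur runs short, Arabidopsis raises the transcripts of the APR genes, of several transporters and of the SDI and LSU genes, which therefore serve as markers of sulfur status.

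Each table holds 1 FPKM value per gene and genotype (fragment number per transcript length and sequencing yield, combined over libraries by the authors), with the authors' Cuffdiff statistic, p and q. No values per library are given, so depth and the spread between libraries are unknown here, and the labels do not name separate plantings for the 2 libraries of a mutant, so the p-values may measure technical spread. A gene is said to have risen or fallen where q was under 0.05. The smallest Cuffdiff p in each table was 5e-05. It gave a q of 0.00165 in asil1-2 and 0.00374 in hdp3-2. These are the lowest q values possible there, are shared by several genes below, and do not rank them. The standard error (SE) of a log2 fold change is that change divided by the authors' statistic. ASIL1 itself stood at 22.9 FPKM in Col-0 and 4.16 FPKM in asil1-2 (authors' deposited table, Cuffdiff q = 0.00165), and the hdp3-2 label had no such check. All 13 root markers and all 5 leaf markers were above 0 in each genotype. Only 10372 of 33557 genes were at 0 in Col-0, so this check cannot show which tissues were sampled. Organelle transcripts moved in 1 mutant: of 83 tested in hdp3-2, 17 rose and 0 fell, with a median log2 fold change of 1.10, and in asil1-2 the median over those tested was 0.12. Summed over all 33557 genes, FPKM was 4.47e+06 in hdp3-2 against 1.46e+06 in Col-0. In the asil1-2 table the sum was 1.40e+06 in the mutant against 1.48e+06 in Col-0. The part of the organelle transcripts, and of the larger hdp3-2 sum, in the results below was not tested.

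The 10 genes were chosen with earlier results of these data known, so the shares and medians below describe them and the set was not tested. In asil1-2 most of the 10 genes were lower. Of the 10 genes, 7 fell and 0 rose, where 5.72% of all 20205 tested genes fell and 2.71% rose by the same rule. The median log2 fold change of the 10 genes was -0.74, beside -0.08 over all tested genes. LSU2, SDI2 and APR1 fell more than 2-fold. In hdp3-2 only LSU2 fell and 0 of the 10 rose, where 1.78% of 20177 tested genes fell and 1.3% rose. The median of the 10 genes was -0.51 in hdp3-2, beside -0.06 over all tested genes, and all 10 values were negative, beside 58.7% of tested genes. At an unadjusted p under 0.05 in the authors' Cuffdiff test, 8 of the 10 genes were lower in asil1-2 and 5 in hdp3-2, and 0 were higher in either. By that rule 13.5% of all tested genes were lower and 6.61% higher in asil1-2, and 8.43% were lower and 4.45% higher in hdp3-2. Both comparisons use the same Col-0 control, so their directions are not independent of each other. In whole seedlings, fewer cells of a type and less RNA per cell cannot be told apart.

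The stretches before the gene start are shown for the 3 genes that fell more than 2-fold in asil1-2, and for SDI1. The 3 genes were lower together, and SDI1 is the single gene of the set with a searched motif upstream of its RefSeq start. They are 250 bases long, end at the base before the RefSeq gene start, are written 5′ to 3′ on the strand of the gene, and were read from the TAIR10.1 genome. Capitals mark the motif GAGAC, the core of the sulfur-responsive element, on either strand.
LSU2, chr5:8444102-8444351, minus strand: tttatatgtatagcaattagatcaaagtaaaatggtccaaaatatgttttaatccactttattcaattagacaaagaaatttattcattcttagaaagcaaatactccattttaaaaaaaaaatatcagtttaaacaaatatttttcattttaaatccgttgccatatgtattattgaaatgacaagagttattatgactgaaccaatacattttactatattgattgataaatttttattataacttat
SDI2, chr1:1337850-1338099, minus strand: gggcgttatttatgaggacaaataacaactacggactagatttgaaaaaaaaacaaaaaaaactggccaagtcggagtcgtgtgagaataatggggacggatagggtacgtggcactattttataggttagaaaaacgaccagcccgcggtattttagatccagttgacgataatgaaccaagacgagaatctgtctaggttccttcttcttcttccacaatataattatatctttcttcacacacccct
APR1, chr4:2324628-2324877, plus strand: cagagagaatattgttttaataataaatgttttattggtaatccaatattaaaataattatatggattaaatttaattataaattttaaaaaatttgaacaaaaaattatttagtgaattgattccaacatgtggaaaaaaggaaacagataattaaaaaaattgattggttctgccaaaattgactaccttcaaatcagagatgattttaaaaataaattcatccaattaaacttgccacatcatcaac
SDI1, chr5:19807854-19808103, minus strand: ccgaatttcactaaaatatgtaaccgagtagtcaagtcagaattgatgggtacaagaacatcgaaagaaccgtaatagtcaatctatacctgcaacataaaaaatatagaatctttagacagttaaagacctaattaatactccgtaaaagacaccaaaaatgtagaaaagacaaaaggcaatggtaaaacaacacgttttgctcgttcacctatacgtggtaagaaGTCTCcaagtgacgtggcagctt
The motifs GAGAC and GTGATT, the latter a box that ASIL1 is known to bind, were searched on both strands in windows of 300 bases, from 250 before to 50 after the gene start. No window of the 10 genes held both motifs. GAGAC was in the windows of 2 of the 10 genes, SDI1 and LSU2, and in 32.8% of 27443 windows of nuclear protein-coding genes. In SDI1 it began 23 bases before the RefSeq start on the opposite strand and at base 10 after it. In LSU2 it lay at bases 6 and 27 after the RefSeq start, on the opposite strand. GTGATT was in 0 of the 10 windows and in 18.5% of all windows. The gene starts of the deposited tables differ from those of RefSeq in 7 of the 10 genes, by 94 bases (SDI1) to 2220 bases (SULTR1;2). For LSU2 the gap is 267 bases, so its printed stretch lies outside the 250 bases before the deposited start. The LSU2 matches at bases 6 and 27 lie before the deposited start. At the deposited starts GAGAC was in 3 of the 10 windows and GTGATT in 1, that of APR1, beside 37.8% and 18.4% of 23003 windows. Those 23003 windows leave out genes that share a locus span with a neighbour. The 10 genes include APR2 and APR3, which share one, so the 2 sets are not alike in this. A match is a description of these letters and not of binding.

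**Figure D1:**
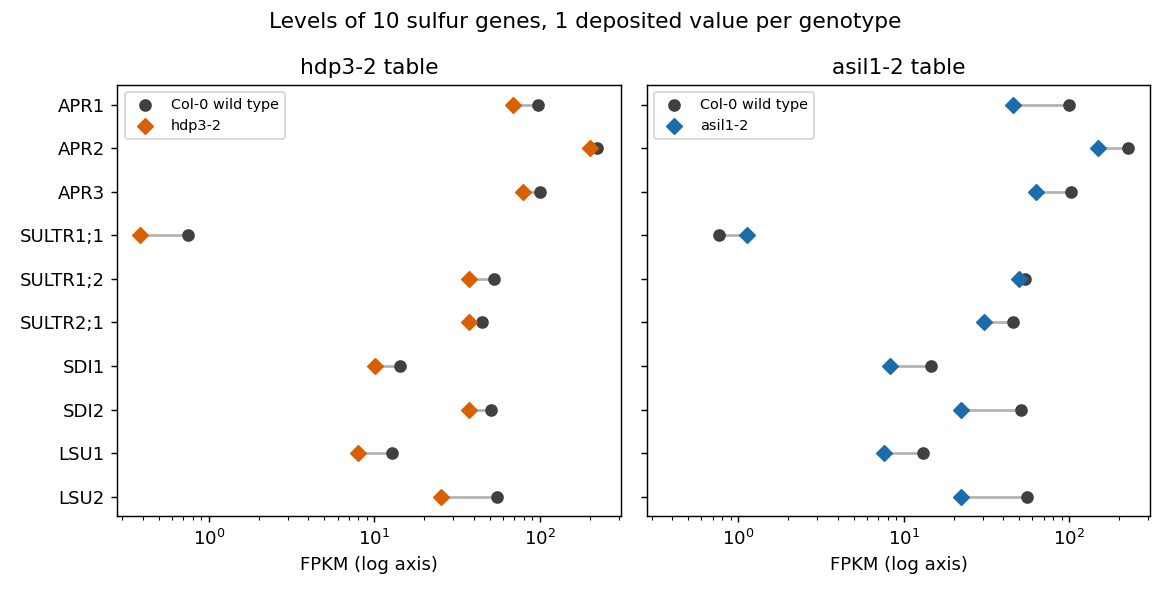
FPKM (log axis) of the 10 genes in Col-0 (circles) and in the mutant (diamonds), with the hdp3-2 table on the left and the asil1-2 table on the right, 1 value per genotype combined over libraries. The diamonds lie left of the circles for all 10 genes in hdp3-2 and for all but SULTR1;1 in asil1-2.

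The levels in Col-0 spanned a wide range. In the asil1-2 table APR2 was highest at 225 FPKM, followed by APR3 at 103 FPKM and APR1 at 99.7 FPKM. LSU2 (56.0 FPKM), SULTR1;2 (53.9 FPKM), SDI2 (51.3 FPKM) and SULTR2;1 (45.6 FPKM) came next. SDI1 (14.7 FPKM) and LSU1 (13.0 FPKM) were lower, and SULTR1;1 was barely present at 0.762 FPKM. Without values per library, neighbours in this order such as APR3 and APR1, or SDI1 and LSU1, could not be told apart. The Col-0 values of the hdp3-2 table are those of the asil1-2 table times 0.982. The reason for this factor is not stated in the text at hand.

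The 3 reductase genes encode the plastid enzymes that reduce APS to sulfite, a strongly regulated step of the pathway. All 3 fell in asil1-2. APR1 (AT4G04610, chromosome 4, 2325003 to 2327013 in TAIR10, counted from 1) was listed at 99.7 FPKM in Col-0 and 45.8 FPKM in asil1-2, so that 46.0% of the wild-type level was left. Its log2 fold change was -1.12 ± 0.24 (SE), with a q of 0.00165 in the authors' deposited table. In hdp3-2 APR1 stood at 68.6 FPKM against 97.9 FPKM, a log2 fold change of -0.51 ± 0.28 with a q of 0.168, which did not pass. APR3 (AT4G21990, chromosome 4) was at 62.9 FPKM in asil1-2 against 103 FPKM, a change of -0.71 ± 0.27 (authors' q = 0.00303), and at 79.0 FPKM against 101 FPKM in hdp3-2 (-0.35 ± 0.32, q = 0.557). APR2 (AT1G62180, chromosome 1), the most abundant reductase transcript, was at 149 FPKM in asil1-2 against 225 FPKM (-0.60 ± 0.25, q = 0.0159). In hdp3-2 APR2 was at 201 FPKM against 221 FPKM, which is -0.14 ± 0.29 (q = 0.897). Summed over the 3 genes, the reductase level was 257 FPKM in asil1-2 against 428 FPKM in Col-0, and 349 FPKM in hdp3-2 against 420.1 FPKM. The authors' tables give APR2 and APR3 a locus span in common with a neighbouring gene, AT1G62170 and AT4G21980, so their values are less certain than that of APR1.

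The transporters were less uniform. SULTR2;1 (AT5G10180, chromosome 5, 3193144 to 3197120), which moves sulfate through the vasculature, fell in asil1-2 from 45.6 FPKM to 30.4 FPKM, a log2 change of -0.59 ± 0.24 (authors' q = 0.0172). In hdp3-2 SULTR2;1 had 37.2 FPKM against 44.8 FPKM, -0.27 ± 0.28 (q = 0.662). SULTR1;2 (AT1G78000), the main carrier for sulfate uptake by roots, did not pass in either mutant. It had 49.7 FPKM against 53.9 FPKM in asil1-2 (-0.12 ± 0.24, authors' q = 0.781) and 37.2 FPKM against 52.9 FPKM in hdp3-2 (-0.51 ± 0.28, q = 0.168). SULTR1;1 (AT4G08620), an uptake carrier that sulfur shortage raises strongly in roots, was near the lower limit of measurement in every genotype. It was listed at 0.762 FPKM in Col-0 and 1.13 FPKM in asil1-2 (0.56 ± 0.54, q = 0.463), and at 0.748 FPKM and 0.386 FPKM in the hdp3-2 table (-0.95 ± 0.71, q = 0.476). The SULTR1;1 values are thus within 2 SE of 0 in both mutants. Because SULTR1;1 and SULTR1;2 work in roots, root markers are given beside them: the summed level of the 13 root markers was 172 FPKM in asil1-2 against 148 FPKM in Col-0, with 1 that rose (PRP3, a root hair wall protein gene, from 10.3 to 18.95 FPKM) and 0 that fell. At an unadjusted p under 0.05 in the Cuffdiff test, 3 root markers were higher in asil1-2 and 1 was lower. By that rule 6.61% of all tested genes were higher in asil1-2 and 13.5% lower, and by the q rule 2.71% rose and 5.72% fell. In hdp3-2 the summed level of the root markers was 151 FPKM against 145 FPKM, with 0 called by Cuffdiff and 0 at an unadjusted p under 0.05. The summed level of the 5 leaf markers was 29974 FPKM against 30841 FPKM in asil1-2 and 26649 FPKM against 30270.2 FPKM in hdp3-2, with 0 called by Cuffdiff and 0 at an unadjusted p under 0.05 in either table.

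**Figure D2:**
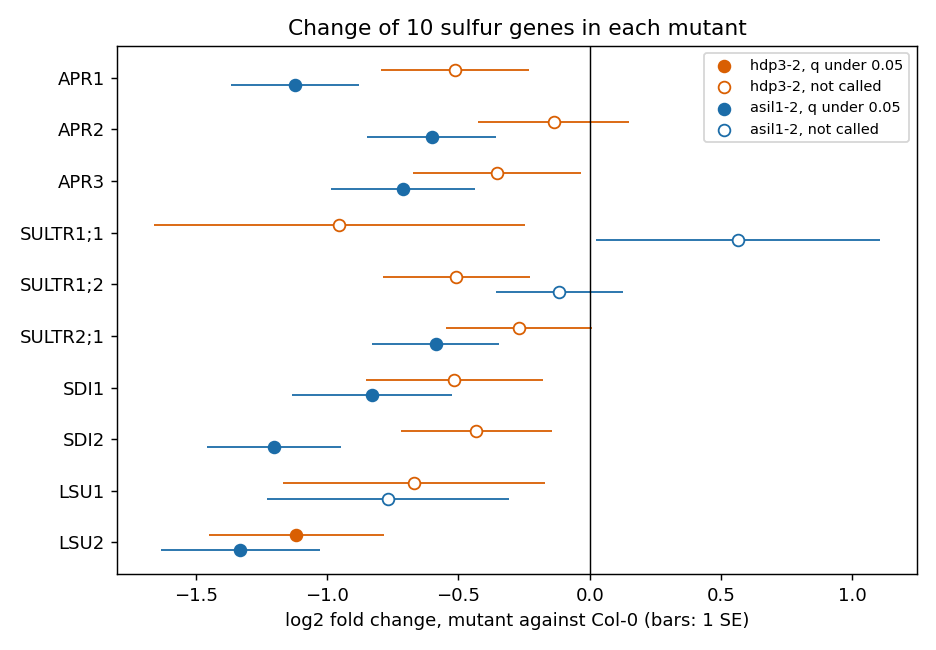
Log2 fold change against Col-0 (horizontal axis; bars show 1 SE derived from the authors' statistic) of the 10 genes in hdp3-2 (orange) and asil1-2 (blue), filled where the authors' q was under 0.05. In asil1-2 7 genes are filled, all left of 0, and in hdp3-2 only LSU2 is.

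Among the 10 genes, the largest log2 decreases in asil1-2 were listed for the starvation response genes LSU2 and SDI2. APR1 was close to SDI2 (-1.12 ± 0.24 against -1.20 ± 0.26), so the order of these 2 is not settled. LSU2 (AT5G24660, chromosome 5, 8443279 to 8443834), one of the small LSU proteins that bind many partners and accumulate under sulfur shortage, fell in both mutants. It was listed at 56.0 FPKM in Col-0 and 22.2 FPKM in asil1-2, and at 54.9 FPKM and 25.3 FPKM in the hdp3-2 table. The fold decreases were 2.52 and 2.17, with log2 changes of -1.33 ± 0.30 (authors' q = 0.00165) and -1.12 ± 0.33 (q = 0.00374). Only 1.12% of tested genes in asil1-2 and 1.77% in hdp3-2 had a lower log2 fold change than LSU2. LSU1 (AT3G49580, chromosome 3), its paralog, had 7.62 FPKM against 13.0 FPKM in asil1-2 (-0.77 ± 0.46, authors' q = 0.126) and 8.03 FPKM against 12.8 FPKM in hdp3-2 (-0.67 ± 0.50, q = 0.411), and did not pass in either. Both LSU genes of the set have a tandem neighbour of the same family. LSU3 (AT3G49570), next to LSU1, had 7.55 FPKM against 27.7 FPKM in asil1-2 and 9.96 FPKM against 27.2 FPKM in hdp3-2, a fall of 3.67-fold and 2.73-fold (authors' q = 0.00165 and 0.00636). LSU4 (AT5G24655), next to LSU2, was low, at 3.13 FPKM against 4.68 FPKM and 4.33 FPKM against 4.59 FPKM, and did not pass (q = 0.538 and 0.980). The sources do not say how the authors assigned reads that match more than 1 LSU gene, so the split between paralogs is uncertain.

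SDI1 and SDI2 encode related proteins that accumulate under sulfur shortage and lower glucosinolate synthesis, SDI1 through the transcription factor MYB28. SDI2 (AT1G04770, chromosome 1, 1336371 to 1337849) fell in asil1-2 from 51.3 FPKM to 22.3 FPKM, which is 2.30-fold and a log2 change of -1.20 ± 0.26 (authors' q = 0.00165). In hdp3-2 SDI2 had 37.4 FPKM against 50.4 FPKM, -0.43 ± 0.29 (q = 0.302). SDI1 (AT5G48850, chromosome 5) fell in asil1-2 from 14.7 FPKM to 8.26 FPKM (-0.83 ± 0.30, q = 0.00627). In hdp3-2 SDI1 had 10.1 FPKM against 14.4 FPKM (-0.52 ± 0.34, q = 0.304). The summed level of the 4 SDI and LSU genes of the set was 60.5 FPKM in asil1-2 against 135 FPKM in Col-0, and 80.8 FPKM in hdp3-2 against 132 FPKM.

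The calls depended on how the authors' statistic is read. Their p is smaller than a standard normal reading of the statistic gives, and under that reading 3 of the 10 genes (LSU2, SDI2 and APR1) fell in asil1-2 and 0 in hdp3-2, where LSU2 had an adjusted p of 0.0886.

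Although 7 of the genes fell in asil1-2 and only LSU2 in hdp3-2, no gene of the set was shown to differ between the mutants. The difference of the log2 fold changes was tested gene by gene with a z test over 19977 genes, two-sided with Benjamini-Hochberg adjustment, which called 0.13% of them. For the 10 genes 0 passed, and 1 had an unadjusted p under 0.05. That gene was SDI2, whose log2 fold change was higher in hdp3-2 than in asil1-2 by 0.77 ± 0.39 (SE), which did not pass after adjustment. APR1 had a difference of 0.61 ± 0.37 and SULTR1;1 of -1.52 ± 0.89, neither of which passed. LSU2 differed by 0.21 ± 0.45, so a difference of either sign was not excluded. The shared Col-0 control makes this test conservative. So does the SE, since at the median the z value implied by the authors' p was 1.41 times the statistic in hdp3-2 and 1.42 times in asil1-2. With the summed variance multiplied by 0.5, 0 of the 10 genes passed the z test and 3 had an unadjusted p under 0.05. That factor may not cover both sources, so the z test was stricter than the authors' calls and cannot show that the mutants were alike.

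**Figure D3:**
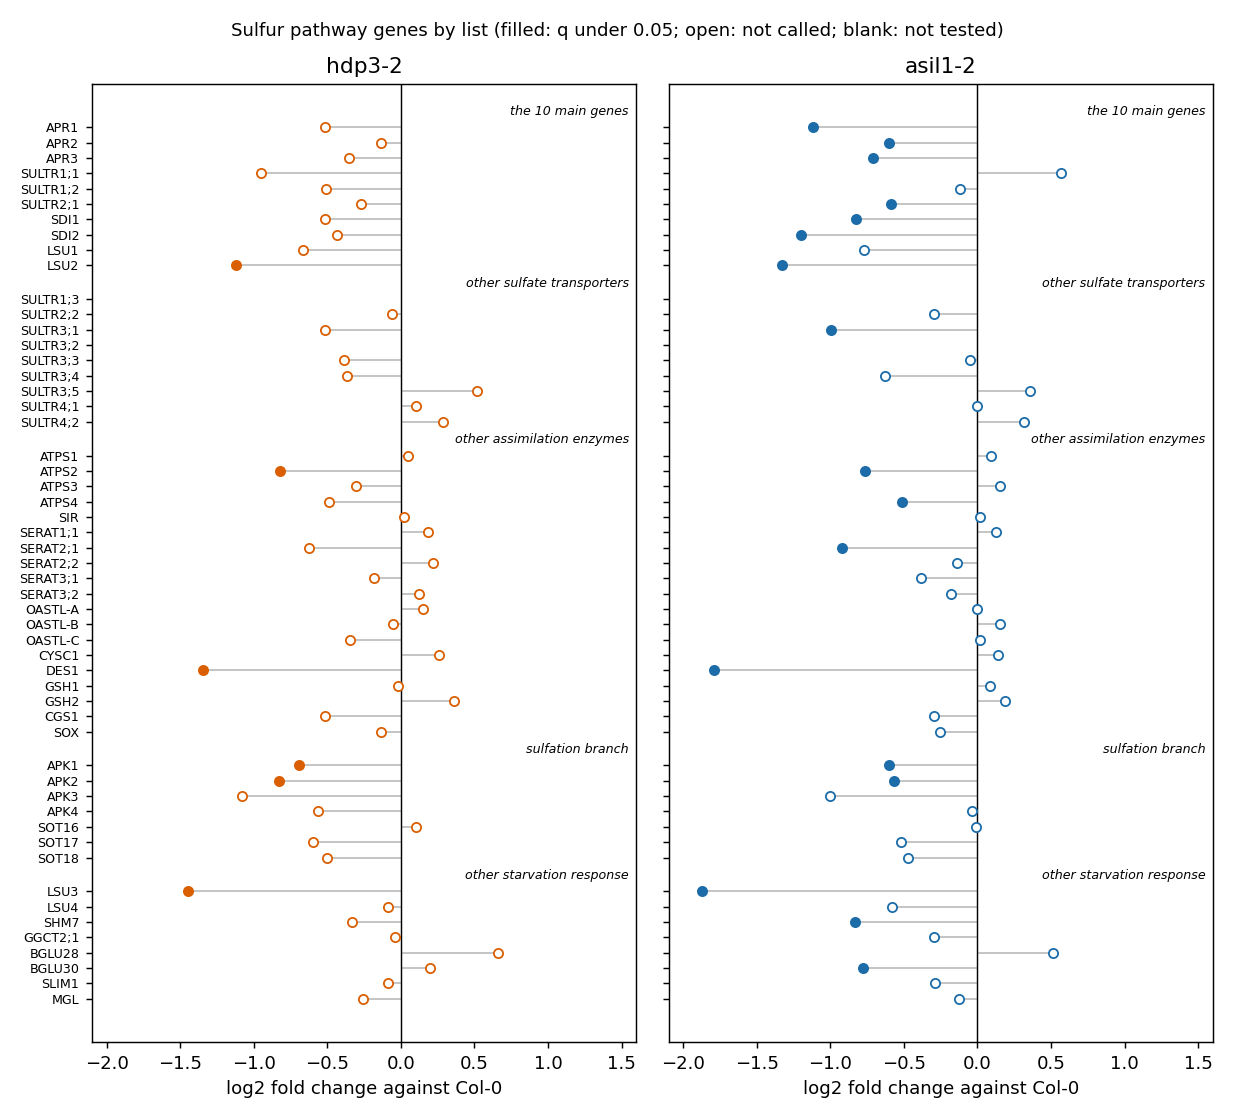
Log2 fold change against Col-0 of the 10 genes and of the sulfur pathway genes in 4 further lists, in hdp3-2 (left) and asil1-2 (right); filled points had an authors' q under 0.05, open points did not, and genes that were not tested have no point. All filled points lie left of 0 in both panels.

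The rest of the pathway, with 7 regulators that link it to glucosinolates and light, was followed in 5 lists of 50 genes in all. Of the 50 genes, 48 were tested. In asil1-2 13 of them fell and 0 rose, and in hdp3-2 8 fell and 0 rose. The 7 regulators made up 3 of these falls in each mutant, with medians of -0.79 in asil1-2 and -0.85 in hdp3-2. Of all tested genes, 5.72% fell and 2.71% rose in asil1-2, and 1.78% fell and 1.3% rose in hdp3-2. These shares also stand beside the counts of each list below. The medians of the 48 genes were -0.29 in asil1-2 and -0.28 in hdp3-2, beside -0.08 and -0.06 over all tested genes. At an unadjusted p under 0.05 in the Cuffdiff test 17 of the 48 were lower in asil1-2 and 16 in hdp3-2, and 0 were higher, beside 13.5% and 8.43% of all tested genes that were lower by that rule. Among the 9 other sulfate transporters, 7 were tested. Of these 1 fell in asil1-2 and 0 in hdp3-2, where Cuffdiff gave 1 an unadjusted p under 0.05. It was SULTR3;1 (AT3G51895), which carries sulfate into chloroplasts, at 5.84 FPKM against 11.7 FPKM in asil1-2 (-0.998 ± 0.28, authors' q = 0.00165) and 8.01 FPKM against 11.4 FPKM in hdp3-2 (-0.52 ± 0.31, q = 0.240).

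Of the 19 other enzymes of sulfate activation, reduction and cysteine, glutathione and methionine synthesis, 4 fell in asil1-2 and 2 in hdp3-2, and their medians were -0.01 and -0.05. ATPS2 (AT1G19920), one of the ATP sulfurylases, was at 35.4 FPKM against 60.0 FPKM in asil1-2 and 33.3 FPKM against 58.9 FPKM in hdp3-2 and fell in each (log2 -0.76 ± 0.24 and -0.82 ± 0.28). DES1 (AT5G28030), a cytosolic enzyme that releases sulfide from cysteine, fell 3.46-fold in asil1-2, from 7.14 FPKM to 2.06 FPKM (authors' q = 0.00165). In hdp3-2 DES1 fell 2.54-fold, from 7.01 FPKM to 2.76 FPKM (q = 0.00636). SERAT2;1 (AT1G55920), which makes the carbon acceptor for cysteine in plastids, fell in asil1-2 from 41.5 FPKM to 21.9 FPKM (-0.92 ± 0.25) and had 26.4 FPKM against 40.7 FPKM in hdp3-2 (q = 0.0686). ATPS4 (AT5G43780) fell in asil1-2 from 109 FPKM to 76.8 FPKM (q = 0.0405) and had 76.6 FPKM against 107 FPKM in hdp3-2 (q = 0.192). ATPS4 has a locus span in common with a neighbouring gene, AT5G43770, so its values are less certain. Values are also given for 3 enzymes, chosen after their values were seen, that did not pass in either mutant. SIR (AT5G04590), the single sulfite reductase, had 152 FPKM against 150.2 FPKM in asil1-2 and 149 FPKM against 147 FPKM in hdp3-2, with log2 changes of 0.02 ± 0.24 and 0.02 ± 0.29. Those of the cytosolic cysteine synthase OASTL-A (AT4G14880) were -0.01 and 0.15, and those of GSH1 (AT4G23100), the first enzyme of glutathione synthesis, were 0.08 and -0.02.

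In the sulfation branch, the APS kinase genes APK1 and APK2, whose products supply activated sulfate for glucosinolates, fell in each mutant, 2 of 7 genes on that list, and 0 rose. APK1 (AT2G14750) was at 52.5 FPKM against 79.7 FPKM in asil1-2 (-0.60 ± 0.25, authors' q = 0.0137) and 48.4 FPKM against 78.2 FPKM in hdp3-2 (-0.69 ± 0.28, q = 0.0258). APK2 (AT4G39940) was at 39.7 FPKM against 58.9 FPKM and 32.5 FPKM against 57.8 FPKM (q = 0.0257 and 0.00636). The list medians were -0.52 in asil1-2 and -0.59 in hdp3-2. The sulfotransferase genes SOT17 and SOT18, which act at the last step of glucosinolate core synthesis, had log2 values from -0.59 to -0.47 over both mutants without passing, and SOT16 had -0.01 in asil1-2 and 0.10 in hdp3-2.

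Of the 8 other starvation response genes, 3 fell in asil1-2 and 1, LSU3, in hdp3-2. Beside LSU3 these were SHM7 (AT1G36370), a serine hydroxymethyltransferase homolog known to rise under sulfur shortage, from 133 FPKM to 74.9 FPKM (-0.83 ± 0.24, authors' q = 0.00165), and the beta-glucosidase gene BGLU30 (AT3G60140), from 9.42 FPKM to 5.50 FPKM (-0.78 ± 0.29, q = 0.00814). In hdp3-2 SHM7 had 104 FPKM against 131 FPKM (q = 0.516) and BGLU30 had 10.6 FPKM against 9.25 FPKM (q = 0.830). SLIM1 (AT1G73730), the transcription factor that drives much of the sulfur shortage response, did not pass in either mutant. It had 8.80 FPKM against 10.8 FPKM in asil1-2 (-0.29 ± 0.27, q = 0.407) and 9.95 FPKM against 10.6 FPKM in hdp3-2 (-0.09 ± 0.30, q = 0.955).

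Of the 7 regulators that link sulfur use to glucosinolates and light, 3 fell in each mutant. MYB28 and MYB29, activators of aliphatic glucosinolate genes, were at 45.0% and 40.8% of the Col-0 level in asil1-2 and at 54.8% and 26.9% in hdp3-2. HY5 (AT5G11260), a light-signalling factor known to act on APR genes, fell in asil1-2 from 21.9 FPKM to 12.6 FPKM (-0.79 ± 0.29, authors' q = 0.00627) and had 13.3 FPKM against 21.5 FPKM in hdp3-2 (-0.69 ± 0.33, q = 0.0969). MYB51 (AT1G18570), an activator of indolic glucosinolate genes, fell in hdp3-2 from 9.89 FPKM to 5.48 FPKM (q = 0.0272) and had 11.1 FPKM against 10.1 FPKM in asil1-2 (q = 0.777). The difference of MYB51 between the mutants did not pass the z test (log2 difference -0.99 ± 0.44).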

How the data were processed

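RNA was sequenced from seedlings of hdp3-2 and asil1-2. Per the submitters' processing notes, TopHat2, Cufflinks, Cuffdiff and deepTools and the build TAIR10 were used, without versions or roles. The authors deposited 1 table per mutant in Cuffdiff layout, per the file headers: FPKM per genotype, a test statistic (a score, 0 without a test), and the p-value and q-value. A Benjamini-Hochberg adjustment of p over the tested genes gave their q. No counts or depths are given, so precision rests on the authors' statistic, and no test between libraries was run.

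Genes were called at a q under 0.05. Log2 fold changes were computed from FPKM without a pseudocount. At the median, the z value implied by p was 1.41 times the statistic in hdp3-2 and 1.42 times in asil1-2, so an SE behind p would mostly be smaller. The genes and lists were chosen with earlier results of these data known, so no list was tested. The text names the 10 genes, called genes of the other lists, LSU3, LSU4, ASIL1 and the MIR395 precursor genes. Chosen after their values were seen were SLIM1, SIR, OASTL-A, GSH1, SOT16, SOT17, SOT18 and GGCT2;1. Upstream sequences came from the RefSeq annotation and genome TAIR10.1; the nuclear coordinates were compared through 26687 genes, of which 41.1% share a gene end with the deposited tables. Computations ran in SciPy 1.17.1 and NumPy 2.4.6 under Python 3.11.15, with tables read by pandas 2.3.3 and figures drawn by matplotlib 3.10.9.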

Additional observations from a re-analysis of the deposited data

How the results depend on the processing

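Counts of lower genes among the 10 depended on the rule. In asil1-2 7 fell, 3 with a 2-fold minimum and 3 under a normal reading of the statistic, and 5 at a q under 0.01, where APR2 and SULTR2;1 were lost. In hdp3-2 1 fell, 5 had an unadjusted p under 0.05, and 0 passed under the normal reading. With a 2-fold minimum, 3 of the 8 genes of the 5 other lists called in hdp3-2 and 4 of the 13 in asil1-2 passed. The cause of the gap between p and statistic was not tested. Adjusting over nuclear genes, or over genes with FPKM of at least 1, changed no count of called genes among the 10. Pseudocounts of 0.1 and 1 and centring on the median turned no direction among the 10 genes and moved each log2 value by less than its SE. The difference between the mutants stayed at 0 genes of the 10 under each alternative run, with 0 to 3 at an unadjusted p under 0.05. No paired analysis was possible because the deposited tables hold no values per library, and for the same reason no library could be left out. Depth is unknown, so low genes such as SULTR1;1 carry the widest errors.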

Other observations

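The 6 MIR395 precursor genes, whose small RNA is known to target ATP sulfurylase and SULTR2;1 transcripts, were listed at 0 FPKM in every genotype and had no test, so these tables say nothing of them. GGCT2;1 (AT5G26220), which recycles glutathione and is known to rise with SDI1, SDI2, LSU1 and APR3 under sulfur shortage, had 9.10 FPKM against 11.2 FPKM in asil1-2 (log2 -0.30, q = 0.541 in the authors' deposited table) and 10.7 FPKM against 10.96 FPKM in hdp3-2 (-0.04, q = 0.987). GGCT2;1 was chosen after its values were seen.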
